A study of Mus musculus with 6 samples.

Results

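Transcripts of testicular macrophages were examined in RNA from testes of 7-week-old mice with the ERAD adaptor SEL1L deleted in male germ cells, and of littermates. The study found SEL1L lost from spermatocytes and spermatids of the deleted mice but still present in their spermatogonia. The genes were 10 macrophage genes chosen by name, Adgre1, Csf1r, Cd68, Cd163, Mrc1, C1qa, C1qb, C1qc, Lyz2 and Cx3cr1, and all 10 were found by symbol among the 55536 Ensembl genes counted. They were listed with earlier results of these data known, so the values of these 10 genes in both groups are a description. The 3 KOStra8 mice carried a floxed and a deleted Sel1L allele and the Stra8-Cre transgene, and the 3 HETStra8 mice were littermates for which the record gives a floxed and a deleted allele without naming the transgene. The study also places Stra8-Cre mice that kept a wild-type allele beside the floxed allele under HETStra8, and the genotype of each sequenced mouse is not given in the sources used here. The Stra8 promoter drives Cre in male germ cells, so macrophages are not the cells in which Sel1L was targeted, and both groups share a reduced Sel1L gene dose if the record is taken as written.

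Macrophages are the main immune cells of the testis. Those of the interstitium lie against Leydig cells, depend on the CSF1 receptor, and are known for the mannose receptor CD206, encoded by Mrc1, and for the haemoglobin scavenger receptor CD163. Those on the wall of the tubules, the peritubular macrophages, are known for MHC class II and little CD206. Macrophages also make C1q, the recognition protein of the classical complement pathway, whose A, B and C chains are encoded side by side by C1qa, C1qb and C1qc.

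Each mouse gave 1 library, with totals of 28875108 to 36526695 counts, and levels are given as CPM, the usual per-million scale of counts, with library sizes adjusted by TMM factors. The targeted gene Sel1l was lower in every KOStra8 mouse, with means of 46.4 ± 3.59 CPM in HETStra8 and of 22.2 ± 1.97 CPM in KOStra8 testes (SD, n = 3 each). Testis identity was seen in the germ cell markers, whose summed level lay between 3760.1 and 4294 CPM in the 6 libraries. The epididymal gene Crisp1 was counted 220 times in HETStra8 mouse 1 and at most 11 times elsewhere, and Adam7 44 times in that mouse and 0 times elsewhere. Some values are therefore also given without this mouse. In RNA of a whole testis, fewer macrophages and less RNA per macrophage cannot be told apart.

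The C1q genes lie within a short stretch of chromosome 4 of GRCm38, C1qb from 136880129 to 136886187, C1qc from 136889804 to 136893065 and C1qa from 136895917 to 136898803, all on the minus strand. The 250 bases before the start of transcription in RefSeq (GRCm38.p6) are shown for C1qb and C1qc, which were lower in every KOStra8 mouse, and for Mrc1, which was not. Capitals mark GAGGAA or its reverse complement TTCCTC, a core of the sites of PU.1, the factor of myeloid cells encoded by Spi1. The windows are chr4:136886201-136886450 for C1qb and chr4:136892915-136893164 for C1qc, both on the minus strand, and chr2:14229164-14229413 for Mrc1 on the plus strand.
C1qb: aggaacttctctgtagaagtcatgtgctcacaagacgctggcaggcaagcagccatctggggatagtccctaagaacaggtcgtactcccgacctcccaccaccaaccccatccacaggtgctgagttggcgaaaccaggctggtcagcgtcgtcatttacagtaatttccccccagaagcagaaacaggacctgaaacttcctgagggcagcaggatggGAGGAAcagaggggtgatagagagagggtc
C1qc: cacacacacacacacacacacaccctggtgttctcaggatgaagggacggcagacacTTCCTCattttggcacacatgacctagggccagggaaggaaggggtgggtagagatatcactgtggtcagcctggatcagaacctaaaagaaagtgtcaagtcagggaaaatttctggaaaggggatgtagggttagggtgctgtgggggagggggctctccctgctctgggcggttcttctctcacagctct
Mrc1: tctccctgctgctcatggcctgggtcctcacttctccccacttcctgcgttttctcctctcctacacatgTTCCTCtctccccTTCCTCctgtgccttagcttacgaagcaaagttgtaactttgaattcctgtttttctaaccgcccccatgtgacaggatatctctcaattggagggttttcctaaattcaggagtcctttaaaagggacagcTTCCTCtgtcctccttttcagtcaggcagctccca
C1qb held 1 match starting 30 bases before the start, C1qc held 1 match 193 bases before it, and Mrc1 held 3. Such a match on either strand was present in 23.3% of 32851 promoter windows of this length. Of the 7 macrophage genes with a promoter in the table, 4 held a match, the further one being Cd68, and Cd163, Cx3cr1 and Lyz2 held none. A match describes these letters only.

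For comparison between genes, levels were divided by the merged exon length, and the per-length order over the 6 mice was led by Lyz2, at 8.72 ± 2.09 CPM per kb (SD, n = 6), and C1qb, at 7.74 ± 1.18 CPM per kb (SD, n = 6). Mrc1 followed at 5.49 ± 0.870 CPM per kb (SD, n = 6) and C1qa at 5.00 ± 0.842 CPM per kb (SD, n = 6). C1qc, Csf1r, Cd68 and Adgre1 came next, at means of 2.73, 2.14, 1.90 and 1.53 CPM per kb. Cx3cr1 had a mean of 0.991 CPM per kb and Cd163 was last, at 0.188 ± 0.0540 CPM per kb (SD, n = 6). The ranges of neighbours in this order overlapped, except that Cd163, at 0.101 to 0.245 CPM per kb, lay below Cx3cr1, at 0.499 to 1.68 CPM per kb. The transcript of CD163 was thus counted far less than that of the other interstitial marker, CD206. Per length it reached 4.13, 4.19 and 4.78% of Mrc1 in the HETStra8 mice and 2.05, 2.16 and 3.69% in the KOStra8 mice, in ascending order. Without a correction for GC content and exon length these groups did not overlap. With the correction described below, log2 CPM of Cd163 and Mrc1 was 0.50 and 5.37 in HETStra8 mouse 2. The values were 0.075 and 4.84 in KOStra8 mouse 3, where Cd163 lay closer to Mrc1, so the groups then overlapped.

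Of the 10 genes, 0 reached an adjusted p of 0.01 in edgeR's quasi-likelihood test across 21465 genes, and so 0 met the joint cutoff of the study, which also asks for a fold of 2. Among all genes 0.0186% reached it, 0.014% as higher and 0.00466% as lower in KOStra8 testes, and 0.00932% also had a fold over 2. The study reported more genes at its joint cutoff, from a test of the counts that its methods do not name. With DESeq2, which gave an adjusted p for 5 of the 10, and with limma-voom 0 reached it as well. The adjusted p-values in edgeR's test lay between 0.257 for C1qc and 0.960 for Adgre1. Without the filter on low counts that of Cx3cr1 was 0.0447. The fitted log2 fold change was below 0 for 9 of the 10 genes, against 51.5% of all genes, and its median was −0.37, against −0.0094 over all genes. With the unadjusted p taken at 0.05, 0 of the 10 were higher in KOStra8 testes, against 7.13% of all genes, and 4 were lower, Cx3cr1, C1qc, C1qb and Cd68, against 5.12% of all genes. That number was 2 without HETStra8 mouse 1, against 3.42% of all genes, 1 without KOStra8 mouse 3, against 2.27%, and 6 without HETStra8 mouse 3, against 8.81%. In 5 of the 10 genes, the C1q genes, Cd68 and Cd163, every KOStra8 mouse lay below every HETStra8 mouse, as in 8.43% of all genes, and in 0 of the 10 every KOStra8 mouse lay above, as in 9.33% of all genes.

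Fold changes followed GC content across all genes, with a Spearman rho of −0.47 over 21457 genes, which are not independent replicates. The macrophage genes differ in GC content, from 41.3% in Mrc1 to 59.5% in C1qa, so that values with a correction for GC content and exon length are given beside the uncorrected ones. After it the fitted log2 fold changes of 9 genes were below 0, with a median of −0.32. Of the 10 genes 0 then reached an adjusted p of 0.01, against 0.00932% of all genes as higher and 0.00466% as lower. With the unadjusted p taken at 0.05, 0 were higher, against 3.46% of all genes, and 2, C1qc and Cx3cr1, were lower, against 3.43%. Of the 10 genes, 4 had every KOStra8 mouse below every HETStra8 mouse, against 6.86%.

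**Figure D1:**
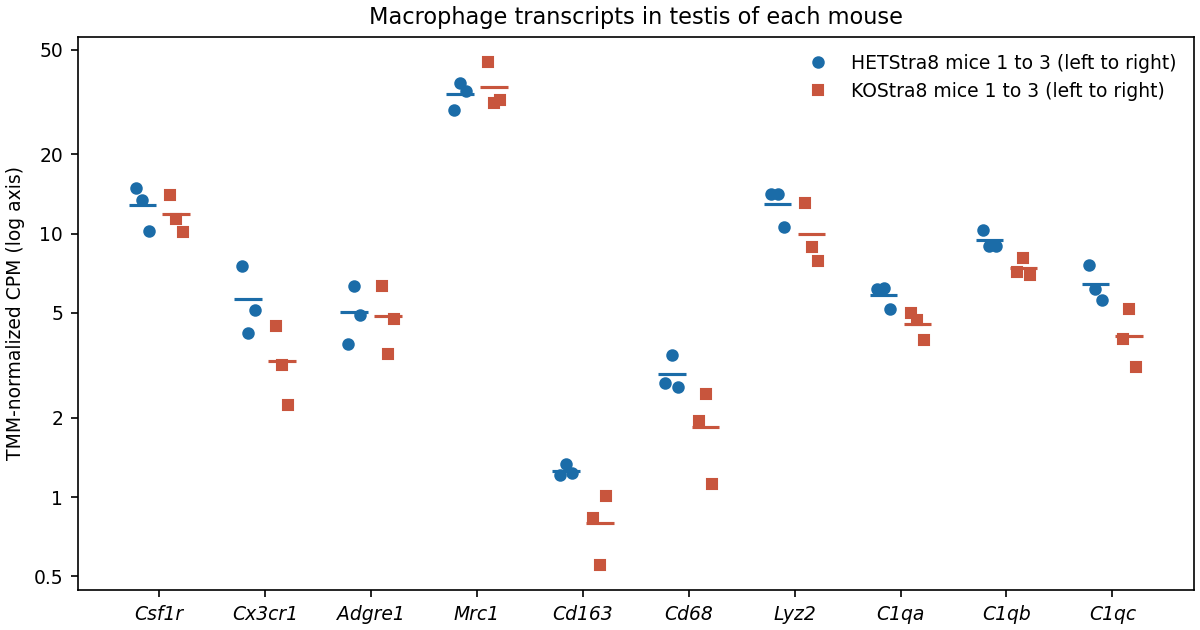
Level of the 10 macrophage genes in testis of each mouse, in TMM-normalized CPM on a log axis. Circles are the 3 HETStra8 and squares the 3 KOStra8 mice, and lines are group means. The points of the groups do not overlap in Cd163, Cd68 and the C1q genes, and overlap in the other 5 genes.

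Among the C1q genes, which encode the chains of a single secreted complex, C1qa was at 6.14, 6.24 and 5.16 CPM in HETStra8 mice 1 to 3 and at 5.01, 4.70 and 3.94 CPM in KOStra8 mice 1 to 3. C1qb was at 10.4, 8.95 and 9.003 CPM and at 7.16, 8.08 and 6.98 CPM. C1qc was at 7.64, 6.18 and 5.58 CPM and at 3.98, 5.18 and 3.12 CPM. KOStra8 mouse 3 was the lowest mouse for each chain. Summed over the chains, the C1q level averaged 21.8 ± 2.23 CPM in HETStra8 and 16.1 ± 1.96 CPM in KOStra8 testes (SD, n = 3 each), from 658 to 759 and from 513 to 564 counts per library. The KOStra8 means were 77.8, 78.5 and 63.3% of the HETStra8 means for C1qa, C1qb and C1qc. The log2 fold changes were −0.36 (95% interval −0.76 to 0.035) for C1qa, −0.35 (95% interval −0.67 to −0.026) for C1qb and −0.66 (95% interval −1.13 to −0.20) for C1qc. With the correction for GC content and exon length they were −0.25, −0.24 and −0.53, and the groups then overlapped for C1qa. When any 1 mouse was left out, the log2 fold change of C1qc stayed between −0.86 and −0.50. The share of C1qa in the summed C1q level per length was 31.9 ± 2.22% (SD, n = 3) in HETStra8 and 32.9 ± 2.57% (SD, n = 3) in KOStra8 testes, a difference smaller than the spread between mice.

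Of the receptors that maintain or attract macrophages, Csf1r, the receptor for CSF1 and IL-34, was at 14.9, 13.4 and 10.2 CPM in HETStra8 mice 1 to 3 and at 14.1, 11.4 and 10.1 CPM in KOStra8 mice 1 to 3. The groups overlapped, and the log2 fold change was −0.11 (SE 0.166), or 0.0074 with the correction for GC content and exon length and 0.0055 without HETStra8 mouse 1. It was −0.0089 without KOStra8 mouse 3, −0.24 without HETStra8 mouse 3 and −0.25 without KOStra8 mouse 1. Csf1r lies on chromosome 18 from 61100598 to 61132149, and 15.1% of its exon bases also belong to Hmgxb3 on the opposite strand. The libraries were directional but the strand setting of the counting is not given in the sources used here, so reads of these genes may not be told apart. Cx3cr1, the fractalkine receptor of monocytes and some tissue macrophages, spans bases 119901616 to 120069879 of chromosome 9. The values were 7.57, 4.19 and 5.13 CPM in HETStra8 mice and 4.47, 3.18 and 2.25 CPM in KOStra8 mice, and Cx3cr1 had the lowest fitted log2 fold change of the 10 genes, −0.77 (SE 0.278, 95% interval −1.37 to −0.17). HETStra8 mouse 2 lay below KOStra8 mouse 1, so the groups overlapped. Without HETStra8 mouse 1, the highest for Cx3cr1, the log2 fold change was −0.50, and across the alternatives it lay between −1.05 and −0.50. The correction for GC content and exon length left it at −0.72.

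Adgre1, which encodes the surface receptor F4/80 used to mark mouse macrophages, spans bases 57358691 to 57483527 of chromosome 17. The values were 3.82, 6.33 and 4.92 CPM in HETStra8 mice and 6.36, 3.49 and 4.74 CPM in KOStra8 mice. KOStra8 mice 1 and 2 held both the highest and the lowest value, and the log2 fold change was −0.045 (95% interval −0.57 to 0.48). It was 0.16 without HETStra8 mouse 2 and 0.15 without KOStra8 mouse 2, and −0.21 without HETStra8 mouse 1 and −0.28 without KOStra8 mouse 1. Cd68, which encodes a lysosomal membrane protein of phagocytes, spans bases 69664213 to 69666153 of chromosome 11. The values were 2.704, 3.48 and 2.61 CPM in HETStra8 mice and 1.95, 2.45 and 1.12 CPM in KOStra8 mice, which were all lower. The log2 fold change of Cd68 was −0.68 (SE 0.300, 95% interval −1.32 to −0.035), and −0.61 with the correction for GC content and exon length. It was −0.42 without KOStra8 mouse 3 and −0.93 without KOStra8 mouse 2. Lyz2, the lysozyme gene of macrophages, spans bases 117277331 to 117282321 of chromosome 10. The values were 14.2, 14.2 and 10.6 CPM in HETStra8 mice and 13.1, 8.91 and 7.86 CPM in KOStra8 mice, with a log2 fold change of −0.38 (SE 0.192), and KOStra8 mouse 1 lay above HETStra8 mouse 3. It was −0.62 without KOStra8 mouse 1 and −0.23 without KOStra8 mouse 3. Of the 50-base sequences of Lyz2 transcripts, 15.4% also occur in Lyz1, the neighbouring lysozyme gene, so reads could be shared between them. Lyz1 held 3 to 22 counts per library, and with both genes summed the log2 fold change was −0.34.

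**Figure D2:**
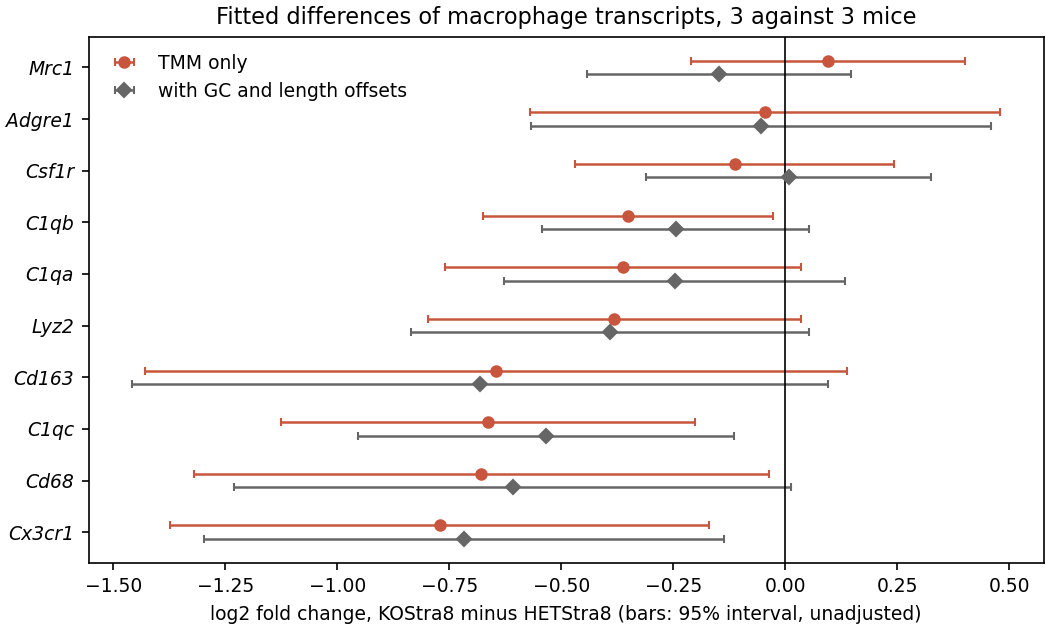
Fitted log2 fold change of the 10 macrophage genes in KOStra8 against HETStra8 testes, 3 against 3 mice, without (circles) and with (diamonds) the correction for GC content and exon length. Bars are 95% intervals, not adjusted for the number of genes. The values run from −0.77 for Cx3cr1 to 0.10 for Mrc1, whose sign is opposite with the correction, as is that of Csf1r.

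The interstitial markers Mrc1 and Cd163 were compared with the other 8 genes. Mrc1, the endocytic mannose receptor, spans bases 14229392 to 14332057 of chromosome 2. The values were 29.5, 37.2 and 34.7 CPM in HETStra8 mice 1 to 3 and 44.9, 31.4 and 32.0 CPM in KOStra8 mice 1 to 3. The highest value was that of KOStra8 mouse 1, and the groups overlapped. The log2 fold change of Mrc1 was 0.10 (SE 0.141, 95% interval −0.21 to 0.40), and −0.15 with the correction for GC content and exon length. It was 0.0063 without HETStra8 mouse 1, −0.084 without KOStra8 mouse 1, and 0.17 to 0.19 without HETStra8 mouse 2, KOStra8 mouse 2 or KOStra8 mouse 3. Cd163 lies on chromosome 6 from 124304656 to 124330527 and was at 1.21, 1.34 and 1.23 CPM in HETStra8 mice and at 0.830, 0.553 and 1.01 CPM in KOStra8 mice. All KOStra8 mice were lower, on 16 to 45 counts per library. The 16 counts of KOStra8 mouse 2 alone allow 0.316 to 0.898 CPM (95% Poisson interval, counting error only). The log2 fold change of Cd163 was −0.65 (SE 0.366, 95% interval −1.43 to 0.14), and −0.68 with the correction. The interstitial markers thus had fitted differences of opposite sign without the correction.

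Taken per mouse, the mean log2 CPM of Mrc1 and Cd163 less that of the other 8 genes was −0.039 ± 0.203 (SD, n = 3) in HETStra8 and 0.10 ± 0.376 (SD, n = 3) in KOStra8 testes, a difference smaller than either spread. The corresponding difference of the fitted log2 fold changes was 0.15. It was −0.066 with the correction for GC content and exon length, −0.050 without KOStra8 mouse 3 and 0.027 without HETStra8 mouse 1. It was 0.32 without KOStra8 mouse 2 and 0.23 without HETStra8 mouse 3. For Mrc1 alone, its log2 CPM less the mean of the other 8 genes was 2.01, 2.39 and 2.50 in HETStra8 mice and 2.91, 2.58 and 2.94 in KOStra8 mice, so that every KOStra8 mouse was above. With the correction these differences were 2.31, 2.57 and 2.49 in HETStra8 and 2.73, 2.51 and 2.72 in KOStra8 mice, and the groups overlapped. Mrc1 has the lowest GC content of the 10 genes. For Cd163 alone, the difference from the other 8 genes was −2.54, −2.35 and −2.25 in HETStra8 and −2.74, −3.11 and −1.96 in KOStra8 mice, with overlap.

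**Figure D3:**
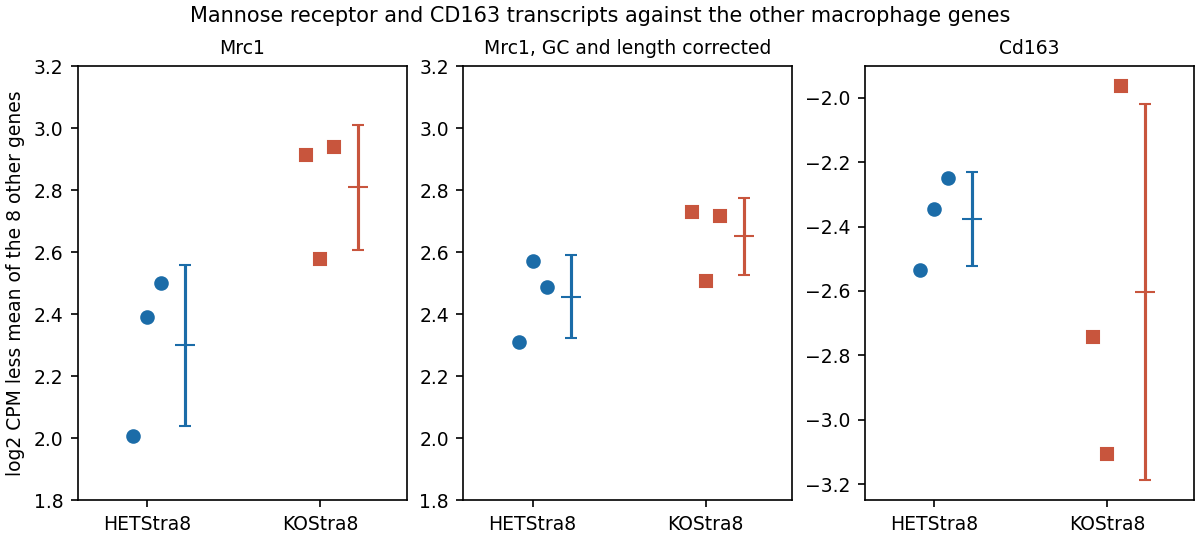
Log2 CPM of Mrc1 and Cd163 in each mouse less the mean log2 CPM of the 8 macrophage genes other than Mrc1 and Cd163. Symbols are mice and bars the mean ± SD of 3. The Mrc1 groups, with means of 2.30 and 2.81, do not overlap before the correction for GC content and exon length and overlap after it, with means of 2.46 and 2.65, and the Cd163 groups overlap.

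Further genes of the macrophage and its surroundings were taken from 10 lists with 113 genes, of which 83 passed the filter on low counts. Of these 0 reached an adjusted p of 0.01 with edgeR, DESeq2 or limma-voom, and with the unadjusted p taken at 0.05 edgeR gave 0 as higher and 5 as lower, against 7.13 and 5.12% of all genes. Without the filter on low counts 1 gene, Ctsb, passed as lower, against 0.134% of all genes. The number lower at that unadjusted p was 9 without HETStra8 mouse 3, against 8.81% of all genes, and 12 without KOStra8 mouse 1, against 3.81%. The list of 20 pan-macrophage genes was tested in full, its log2 fold changes having a median of −0.090 with 18 values below 0 and 0 genes at an unadjusted p below 0.05. Its median was −0.21 with the correction for GC content and exon length. Its smallest p was that of Trem2, a lipid-sensing receptor, which averaged 0.800 ± 0.300 CPM in HETStra8 and 0.440 ± 0.119 CPM in KOStra8 testes (SD, n = 3 each). The log2 fold change of Trem2 was −0.84, with an adjusted p of 0.490 by edgeR, on 9 to 36 counts per library. Of the genes with values above 0, Mertk had the smallest p, with a log2 fold change of 0.14 (SE 0.139) at 9.54 to 12.7 CPM. Also on this list, Aif1 was at 254 to 299 CPM, above the summed 73.2 to 102 CPM of the 10 macrophage genes. Which cells of the testis made the transcripts of this list was not tested. Spi1, which encodes PU.1, had a log2 fold change of −0.29 (SE 0.407). Of 16 genes of CD206-positive resident macrophages 12 were tested, with a median of −0.19, 7 values below 0 and 5 above, and with the correction a median of −0.066 and 6 values below 0. Gas6, a ligand of phagocytic receptors that other cells also make, was the 1 resident gene at an unadjusted p below 0.05, its log2 fold change being −0.29 and its adjusted p by edgeR 0.306. With the correction its log2 fold change was −0.15 and it no longer passed that unadjusted p. Among the resident genes with values above 0, F13a1 had the smallest p. Its log2 fold change was 0.12 (SE 0.143), and 0.041 with the correction. Lyve1, a hyaluronan receptor of such macrophages, was counted 1, 20 and 12 times in HETStra8 and 8, 0 and 2 times in KOStra8 mice, and Vsig4 1 to 13 times, which was too few to be tested.

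MHC class II genes, the markers of peritubular macrophages, had 6 of 7 members tested, a median log2 fold change of −0.17 and 6 values below 0, with 0 at an unadjusted p below 0.05. Cd74, the invariant chain, was at 9.32, 7.37 and 7.05 CPM in HETStra8 and at 7.84, 5.94 and 5.20 CPM in KOStra8 mice, and the groups overlapped. H2-Aa and H2-Ab1, which encode the chains of an MHC class II molecule, had log2 fold changes of −0.42 (SE 0.278) and −0.16 (SE 0.285). With the correction for GC content and exon length the median of this list was −0.036 and the log2 fold change of H2-Ab1 was −0.00044.

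Of the ligands, Csf1 had a log2 fold change of −0.28 (SE 0.197) and Il34 of −0.75 (SE 0.515), and Cx3cl1, which encodes fractalkine, of −0.47 (SE 0.247). With the correction for GC content and exon length these values were −0.16, −0.63 and −0.31. Csf1 was at 8.46, 5.85 and 6.12 CPM in HETStra8 and 6.61, 5.39 and 4.85 CPM in KOStra8 mice, with overlap. The list of 12 ligands and recruitment genes had 7 tested, with 5 values below 0 and 0 at an unadjusted p below 0.05. The chemokine gene Ccl2 held 1 count in a single KOStra8 library and 0 in the other 5 libraries. Of 12 further complement genes 10 were tested, with a median of −0.090 and 6 values below 0. With the correction the median was −0.032 and 5 values were below 0. C1ra and C1s1, the proteases that bind C1q in the first component of the pathway, had log2 fold changes of −0.19 (SE 0.287) and −0.16 (SE 0.157). That of C4b, a later component of the pathway, was −0.11 (SE 0.128). With the correction these 3 values were −0.12, −0.17 and 0.0069. The central component C3 ranged from 8.71 to 25.4 CPM, with HETStra8 mouse 1 the highest. C3ar1, the receptor for the C3a fragment, had a log2 fold change of 0.46 (SE 0.467), and of 0.29 with the correction.

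Of 12 inflammatory genes 6 were tested, with a median of −0.024 and 0 at an unadjusted p below 0.05. The median was −0.087 with the correction for GC content and exon length. Tnf held 0 counts in the HETStra8 libraries and at most 1 in a KOStra8 library, Il6 likewise, and Ptgs2 held 0 in each of the 6 libraries. Counts of 0 allow up to 0.0822 to 0.104 CPM per library, taking 3 counts as the floor. Of 12 lysosome genes 11 were tested and all 11 had values below 0, with a median of −0.19. Of them 4, Ctsb, Ctsd, Hexa and Psap, were lower at an unadjusted p below 0.05, against 5.12% of all genes, and 0 passed the adjusted p. With the correction for GC content and exon length all 11 stayed below 0, with a median of −0.17. Then 4, Ctsb, Ctsl, Lamp2 and Psap, were lower at that unadjusted p, against 3.43% of all genes, so that Ctsd and Hexa no longer passed. Psap, the precursor of lysosomal saposins, averaged 238 ± 21.4 CPM in HETStra8 and 195 ± 18.3 CPM in KOStra8 testes (SD, n = 3 each), with an adjusted p of 0.230 by edgeR. These lysosomal transcripts are made by many cells of the testis.

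Markers of the other somatic cells had medians between −0.30 and −0.21, namely −0.30 for 7 Leydig cell genes, −0.28 for 7 Sertoli cell genes, −0.21 for 5 peritubular myoid cell genes and −0.30 for 5 endothelial genes. All 7 Leydig, 7 Sertoli and 5 myoid genes had fitted values below 0. With the correction for GC content and exon length 7, 5 and 3 of them did, with medians of −0.26, −0.15 and −0.17, and the endothelial median was −0.25. The summed Leydig level was 534 to 813 CPM in HETStra8 and 446 to 579 CPM in KOStra8 mice, and the summed Sertoli level 869.9 to 1055 CPM and 722 to 839 CPM. The median of 7 germ cell genes was 0.15, with 6 values above 0, and 0.032 with the correction. The summed level of the 10 macrophage genes was 89.2, 98.0 and 102 CPM in HETStra8 and 73.2, 79.4 and 102 CPM in KOStra8 mice, in ascending order, and overlapped. The part of these other cell types, and of GC content, in the values of the macrophage genes was not tested.

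**Figure D4:**
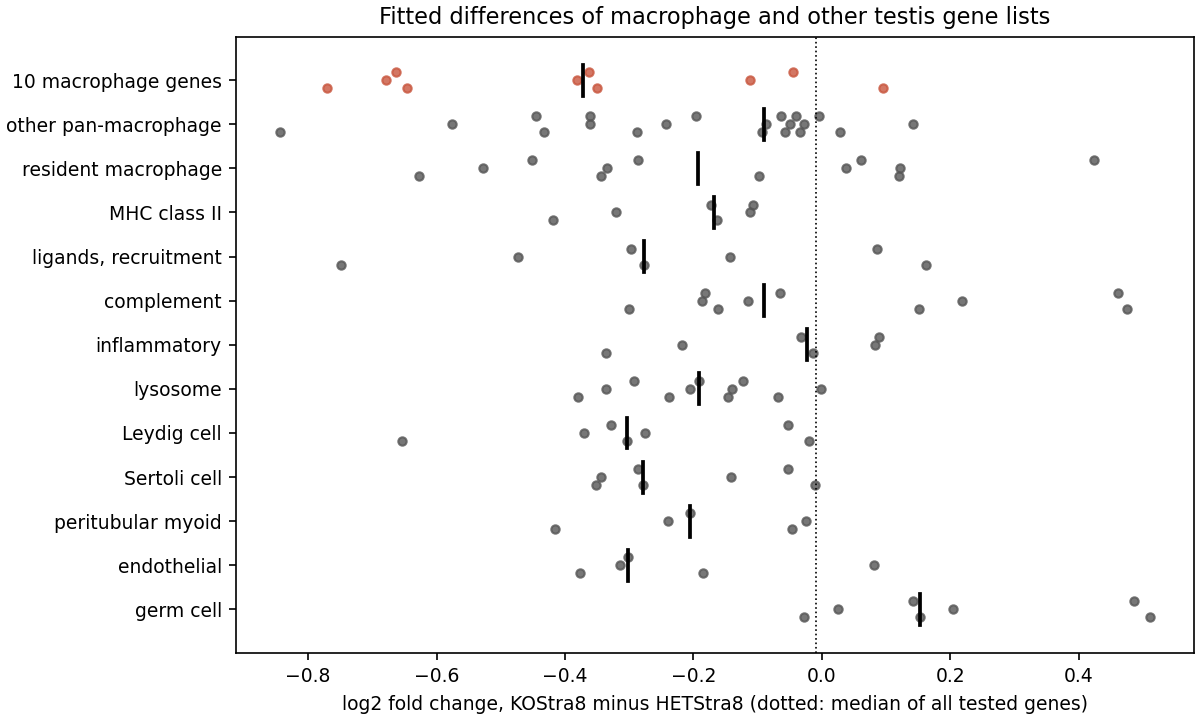
Fitted log2 fold changes of single genes (points) in KOStra8 against HETStra8 testes for the 10 macrophage genes and for lists of other macrophage, immune and testis cell genes, tested genes only, with the median of each list (black bars). The dotted line is the median of all 21465 tested genes, −0.0094. Of the lists drawn, that of germ cell genes has its median right of it, at 0.15, and the others have theirs left of it, at −0.37 for the 10 genes.

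Among 17583 further genes with a mean of at least 1 CPM, those whose log2 CPM over the 6 mice was most like the mean of the 10 macrophage genes were Thra, Ints1, Trmt61a, Tead3 and Slc14a2. Their root mean square differences from the centred macrophage mean were 0.039, 0.046, 0.058, 0.068 and 0.071 on the log2 scale, beside a median of 0.29 over the genes compared. The macrophage mean lay 0.26, 0.27 and 0.075 above its average in HETStra8 mice 1 to 3 and 0.025 above, 0.22 below and 0.40 below it in KOStra8 mice 1 to 3. The genes most like it were not on any of the macrophage or immune lists, and they were picked by this likeness alone.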

How the data were processed

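The authors sequenced poly(A)-selected testis RNA of 6 mice as directional paired-end libraries and deposited whole-number read counts per Ensembl gene for each mouse. The submitters' processing notes name STAR 2.7.1a and featureCounts 1.6.0 and the build GRCm38, and the strand setting of the counting is not given in the sources used here. All 55536 IDs matched GENCODE M21. Samples were grouped by the labels, and where nothing says more, p-values measure the spread between these samples.

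Counts were filtered with filterByExpr, TMM-scaled and fitted in edgeR 4.0.16 (robust quasi-likelihood test, R 4.3.3) with Benjamini-Hochberg adjustment over 21465 genes, and called at an adjusted p of 0.01. DESeq2 1.42.0, limma-voom 3.58.1, other scalings and filters, a replicate block, GC and length offsets (loess, span 0.3) and leaving out each mouse were alternatives. Log2 CPM used a prior count of 2. Intervals and floors on single counts cover counting error only, and PCR copies are not independent molecules. On simulated counts of KOStra8 against HETStra8, edgeR's test recovered 84% of 200 genes with a log2 change of 1.5 among 21009 genes and called 4 unchanged genes. The 10 macrophage genes had fitted log2 fold changes of −0.77 to 0.10, sizes at which recovery was not simulated.

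The 10 genes and all lists were chosen with earlier results of these data known. Named genes were the 10, Sel1l, Lyz1, genes overlapping any of them, the gene of smallest p in each direction of each list, tested ligand, MHC class II and complement genes, and the 5 genes most like the 10. Spi1, Aif1, Lyve1, Vsig4, Ccl2, Tnf, Il6, Ptgs2, Ctsb, Ctsd, Ctsl, Hexa, Lamp2, Hbb-bs, Crisp1 and Adam7 were named after their values were seen. The labels do not state that replicate numbers pair the mice. Deviations of same-numbered mice correlated across genes at −0.060, −0.052 and 0.11, and those of other pairs at −0.12 to 0.15. With so few mice a group these values cannot show or exclude pairing.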

Additional observations from a re-analysis of the deposited data

How the results depend on the processing

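None of the 10 macrophage genes reached an adjusted p of 0.01, by edgeR's test or under any alternative run. At 0.05 none passed in edgeR's test with the filter on low counts, and without it Cx3cr1 did (adjusted p = 0.0447 from edgeR's test). The number lower at an unadjusted p below 0.05 was 2 with the GC and length offsets and between 1 and 6 with each mouse left out, against 4. Among all genes the share was 3.43% with the offsets and 2.27 to 8.81% with each mouse left out. Signs turned for Csf1r, at 0.0074 with the offsets and 0.0074 with the offsets and the replicate block, and for Mrc1, at −0.15 and −0.16. With each mouse left out Csf1r lay between −0.25 and 0.0055, Adgre1 between −0.28 and 0.16, Mrc1 between −0.084 and 0.19, Cd68 between −0.93 and −0.42, Lyz2 between −0.62 and −0.23, and the interstitial difference between −0.050 and 0.32. On the 10 lists, no filter gave 1 lower gene at an adjusted p of 0.01, against 0.134% of all genes. This was Ctsb (log2 fold change −0.38, adjusted p = 0.00996 from edgeR's test). Without the filter 8 were lower and 1 higher at an unadjusted p below 0.05, against 4.26 and 6.09% of all genes. With each mouse left out these were 4 to 12 lower and 0 to 1 higher, against 2.27 to 8.81% and 4.29 to 11.0% of all genes. The causes were not tested. The count of genes at an adjusted p of 0.01 among all genes was 4, and 132 with DESeq2, 385 with no filter, 32 with the replicate block, 14 without HETStra8 mouse 1, 443 without HETStra8 mouse 3 and 1 without KOStra8 mouse 2 or without KOStra8 mouse 3. The replicate block left 4 macrophage genes lower at an unadjusted p below 0.05, against 4.67% of all genes, and 0 called. The number with every KOStra8 mouse below every HETStra8 mouse was 4 with the offsets, against 6.86% of all genes. It was 5 to 7 with each mouse left out, and these alternatives were chosen after seeing the data. No share of all genes was taken with a mouse left out, and groups of fewer mice separate more readily. With 3 mice a group, an exact permutation test of a single value cannot go below p = 0.1, and Cd163, at 16 to 45 counts, is limited by depth.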

Other observations

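Markers of other blood cells were few. Of 8 monocyte and neutrophil genes 3 were tested, with a median log2 fold change of −0.051, and 3 held 0 counts in all 6 libraries. Of 9 lymphocyte and mast cell genes 4 were tested, with a median of 0.098, and Cd3e, a chain of the T cell receptor complex, had a log2 fold change of 0.45 (SE 0.507). Of 5 blood and erythroid genes 4 were tested, all with values below 0 and a median of −0.21. With the GC and length offsets these medians were, in the order given, 0.096, 0.12 and −0.15. The summed level of the blood and erythroid list was 20.5 to 32.0 CPM in HETStra8 and 20.7 to 22.3 CPM in KOStra8 mice, with overlap. Most of this sum was Alas2, at 13.9 to 18.2 CPM, beside 2.46 to 6.89 CPM for the globin gene Hbb-bs. Whether Alas2 came from blood cells was not tested.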
